A study of Mus musculus with 15 samples.

Results

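The genes described are Toll-like receptors, their co-receptor Cd14 and the adaptor Myd88, measured by RNA sequencing in the corpus callosum of the mouse, the large tract of myelinated fibres joining the hemispheres. The members were taken by symbol, Tlr1, Tlr2, Tlr3, Tlr4, Tlr6, Tlr7, Tlr9, Tlr13, Cd14 and Myd88, and all 10 were found among the 33321 genes of the count table. There were 5 groups of 3 libraries. LPC-Ipsil is the site injected with LPC (lysophosphatidylcholine, a detergent-like lipid that strips myelin), and LNIO-Ipsil is the site injected with L-NIO, a drug that blocks nitric oxide synthase of the endothelium and so models stroke of the white matter. LPC-Contra and LNIO-Contra are the callosum opposite those sites, and Sham-Ipsil is the place where sham-operated mice received saline. Tissue of both models was taken on day 4, and the labels give the sham tissue no day of its own. The sources used here give no strain, genotype, sex, age or dose, and no label ties each library to its own mouse, so the p-values rest on the spread between these libraries, some or all of which may be technical.

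Toll-like receptors bind conserved microbial structures and molecules released by damaged cells. Tlr1, Tlr2, Tlr4 and Tlr6 act at the cell surface, where Tlr2 pairs with Tlr1 or Tlr6 to bind lipoproteins and Cd14 passes lipopolysaccharide to Tlr4. Tlr3, Tlr7, Tlr9 and Tlr13 sit in endosomes and bind double-stranded RNA, single-stranded RNA, CpG DNA and bacterial ribosomal RNA in that order. All of them except Tlr3 signal through Myd88 to NF-kB and interferon regulatory factors, and Tlr3 signals through Ticam1 (TRIF). In the brain most of these genes are known mainly from microglia, and Tlr3 also from astrocytes and neurons.

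Start-site sequences are shown because members that lay far apart in their change at the lesion can be compared in them. RefSeq windows of build GRCm38.p6 were matched for 7 of the 10 members (9 windows), and the 250 bases before the annotated start are considered here. Printed 5′ to 3′ on the gene's strand are Tlr2 (chr3:83841609-83841858, minus strand), the second of the Tlr1 windows (chr5:64933559-64933808, minus strand), Tlr9 (chr9:106222348-106222597, plus strand), Myd88 (chr9:119340019-119340268, minus strand) and Tlr3 (chr8:45410381-45410630, minus strand). Capitals mark motif matches.
Tlr2: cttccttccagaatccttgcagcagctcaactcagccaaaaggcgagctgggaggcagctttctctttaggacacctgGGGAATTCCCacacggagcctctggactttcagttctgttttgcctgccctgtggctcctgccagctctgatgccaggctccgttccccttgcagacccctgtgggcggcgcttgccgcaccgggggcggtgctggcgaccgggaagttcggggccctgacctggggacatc
Tlr1: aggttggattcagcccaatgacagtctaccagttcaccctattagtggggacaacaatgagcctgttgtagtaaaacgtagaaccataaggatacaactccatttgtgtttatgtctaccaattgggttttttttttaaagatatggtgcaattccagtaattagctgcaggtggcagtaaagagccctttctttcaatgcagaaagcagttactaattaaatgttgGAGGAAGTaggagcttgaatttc
Tlr9: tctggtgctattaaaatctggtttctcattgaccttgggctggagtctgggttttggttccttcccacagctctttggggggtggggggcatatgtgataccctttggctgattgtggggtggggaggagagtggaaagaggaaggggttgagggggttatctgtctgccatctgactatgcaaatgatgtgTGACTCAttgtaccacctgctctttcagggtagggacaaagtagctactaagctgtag
Myd88: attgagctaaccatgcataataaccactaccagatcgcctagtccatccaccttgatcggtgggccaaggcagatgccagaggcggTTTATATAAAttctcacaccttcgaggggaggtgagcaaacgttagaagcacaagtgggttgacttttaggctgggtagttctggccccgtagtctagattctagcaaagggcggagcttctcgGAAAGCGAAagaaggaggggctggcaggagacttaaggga
Tlr3: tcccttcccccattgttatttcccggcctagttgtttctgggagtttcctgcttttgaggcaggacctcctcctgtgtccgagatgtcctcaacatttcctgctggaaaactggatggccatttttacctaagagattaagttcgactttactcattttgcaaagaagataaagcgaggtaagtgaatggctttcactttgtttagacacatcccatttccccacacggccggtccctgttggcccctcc

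Motifs were searched on both strands in all 32851 windows of that length. The Tlr1 window holds GAGGAAGT, a motif of the myeloid factor PU.1, at -23 to -16, and 2.44% of all windows hold it. The Tlr9 window holds TGACTCA, the AP-1 motif, at -58 to -52 (4.46% of all windows). The Myd88 window holds an interferon response motif, GAAANNGAA, at -40 to -32 (7.13%) and overlapping TATA motifs, TATAAA, on both strands from -164 to -155 (12.4%). The capitals in the Tlr2 window are GGGAATTCC matches on both strands at -172 to -163, an NF-kB-like motif that was added after that window had been read and that 0.21% of windows hold. The other NF-kB motifs searched, GGACTTTCC (0.283% of windows) and GGAATTTCC (0.286%), and the E-box CACGTG (6.02%) have no match in the printed windows, and the Tlr3 window has no match to any motif searched. Among the windows not printed, the other Tlr1 window has an E-box, a Tlr6 window has interferon response motifs, the other Tlr6 window has TATA motifs, and Tlr13 has none.

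The tissue carried the markers of white matter in every library, with 15700 to 30800 summed CPM (TMM-scaled counts relative to library size) over 8 oligodendrocyte genes. The highest of these sums was that of LPC-Ipsil replicate 3, against 20200 and 20000 in LPC-Ipsil replicates 1 and 2. Neuronal genes were also present, with 3340 to 5750 summed CPM over 8 of them. Library totals ran from 14896445 to 20916606 counts. The replicates of LPC-Ipsil stood apart from each other. For all 10 members LPC-Ipsil replicates 1 and 2 lay above each of the 9 contralateral and sham libraries, while LPC-Ipsil replicate 3 lay within their range for 8 members (all but Tlr4 and Tlr9). Microglial genes moved in the same way: the summed CPM over 11 of them was 3460, 2320 and 543 in LPC-Ipsil replicates 1, 2 and 3, 965 to 1480 in LNIO-Ipsil, 452 to 646 in LPC-Contra, 405 to 495 in LNIO-Contra and 396 to 475 in Sham-Ipsil. In bulk tissue fewer cells of a type and less RNA per cell cannot be told apart. The sources used here give no reason for the difference of LPC-Ipsil replicate 3, and whether it holds lesioned tissue was not tested. Every LPC-Ipsil mean and call includes it unless the value without it is named.

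**Figure D1:**
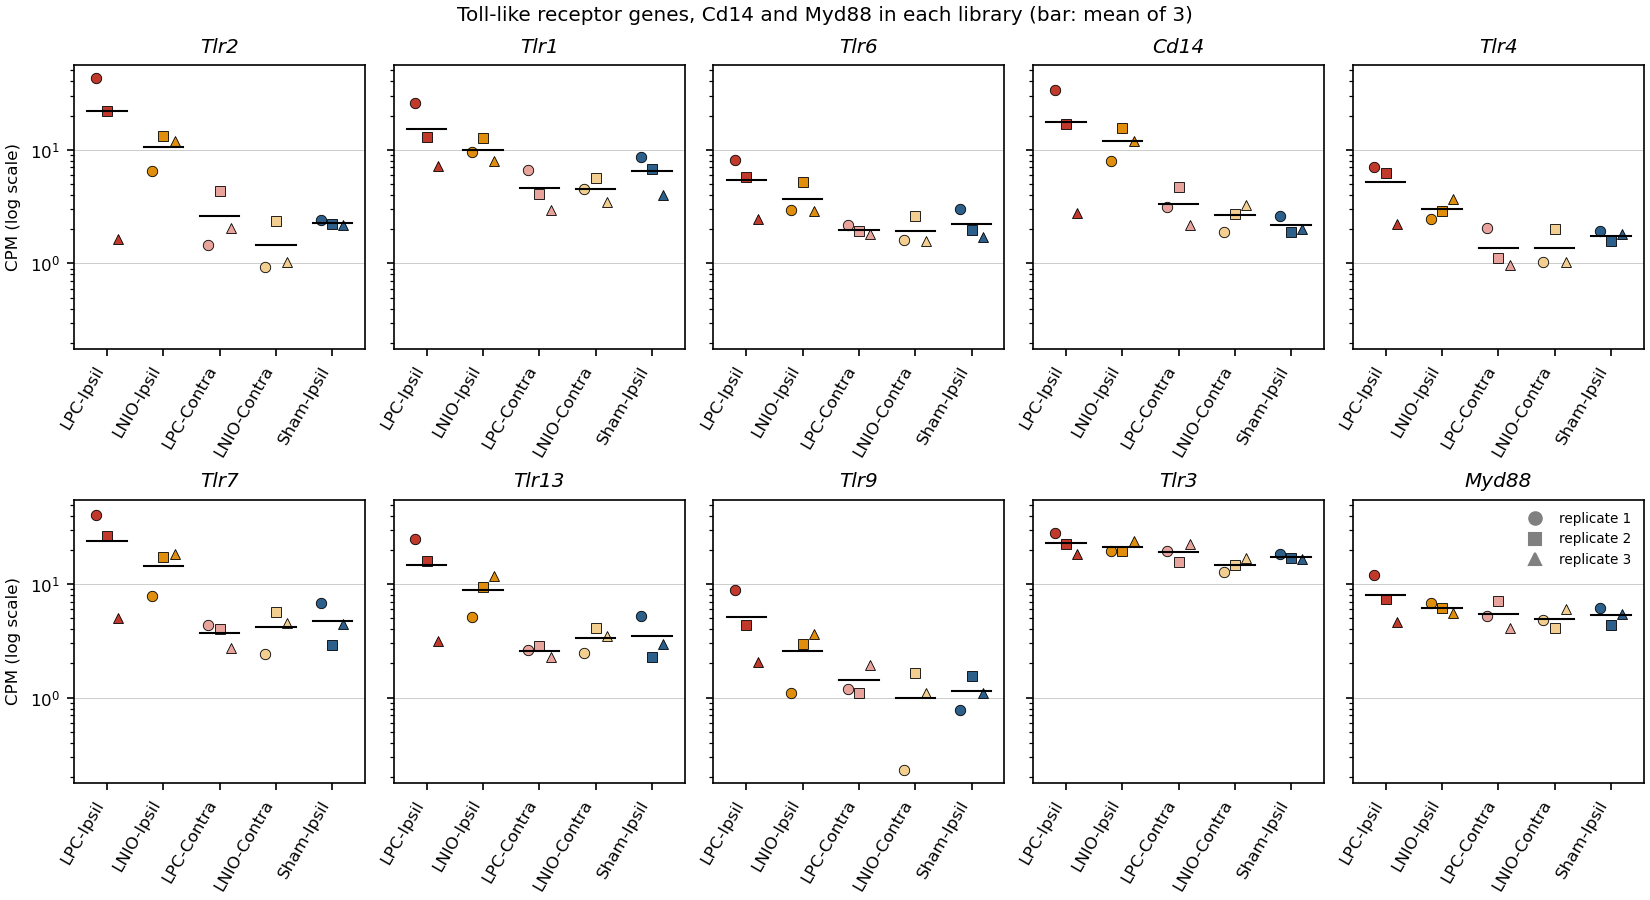
CPM on a log scale (y axis) of each gene in each library of the 5 groups (x axis), with symbols for the replicate and a bar for the mean of 3. LPC-Ipsil replicates 1 and 2 stand above all sham and contralateral libraries in every panel, and the Tlr3 and Myd88 panels are the flattest.

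At the LPC lesion the surface receptor Tlr2 and the co-receptor Cd14 gave the largest log2 fold changes of the set, and 5 of the 10 members rose past the test. The 5 were Cd14, Tlr2, Tlr7, Tlr4 and Tlr13 (edgeR quasi-likelihood test, Benjamini-Hochberg adjusted p under 0.05 over 16795 genes). The share of all tested genes called higher in this comparison was 4.19%. All 10 members passed the filter on low counts, and each of them had 10 or more counts in at least 8 of the 9 libraries outside the lesions. The median log2 fold change of LPC-Ipsil over Sham-Ipsil was 1.81 over the members and 0.01 over all tested genes.

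Tlr2 stood at 42.7, 21.8 and 1.63 CPM in LPC-Ipsil replicates 1, 2 and 3, against 2.39, 2.23 and 2.16 CPM in Sham-Ipsil. LPC-Ipsil replicate 3 was below all 3 sham libraries, so the groups overlapped although the other LPC-Ipsil libraries were the highest of the series. The log2 fold change was 3.28 ± 0.83 (SE; edgeR adjusted p = 0.0404), and without that library it was 3.83 ± 0.47 (adjusted p = 8.51e-05). Tlr1, a partner of Tlr2, had 25.7, 12.9 and 7.26 CPM in LPC-Ipsil, against 8.61, 6.76 and 4.02 CPM in Sham-Ipsil. Its groups overlapped, and its log2 fold change of 1.24 ± 0.42 did not pass (edgeR adjusted p = 0.105). Tlr6, the other partner, had 8.15, 5.76 and 2.48 CPM in LPC-Ipsil, against 2.99, 1.96 and 1.71 CPM in Sham-Ipsil, with overlap, and its log2 fold change was 1.30 ± 0.39 (edgeR adjusted p = 0.0709). Both partners passed without LPC-Ipsil replicate 3 (Tlr1 1.58 ± 0.37, adjusted p = 0.015; Tlr6 1.65 ± 0.34, adjusted p = 0.00519). Tlr1 and Tlr6 are close paralogs whose shared reads may be split, and RefSeq places Tlr6 over Fam114a1 and Mir574, with no strand setting of the counting given in the sources used here, so their separate values are uncertain. Fam114a1 itself had 6.29 to 9.6 CPM in LPC-Ipsil and 4.88 to 6.34 CPM in Sham-Ipsil.

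Cd14, which also serves Tlr2 as a co-receptor, had 33.4, 16.8 and 2.78 CPM in LPC-Ipsil, against 2.63, 1.89 and 2.01 CPM in Sham-Ipsil. The groups did not overlap, but LPC-Ipsil replicate 3 exceeded the highest sham library only slightly. Its log2 fold change was 3.02 ± 0.64 (edgeR adjusted p = 0.0245), the smallest adjusted p of the set. Tlr4, the lipopolysaccharide receptor, had 7.0, 6.24 and 2.24 CPM in LPC-Ipsil, against 1.91, 1.56 and 1.81 CPM in Sham-Ipsil. Here too every LPC-Ipsil library lay above every sham library. The log2 fold change of Tlr4 was 1.55 ± 0.41 (edgeR adjusted p = 0.0441). With LPC-Ipsil replicate 3 left out the value was 3.52 ± 0.37 for Cd14 and 1.90 ± 0.35 for Tlr4.

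Of the endosomal receptors, Tlr7 had 40.1, 26.6 and 5.02 CPM in LPC-Ipsil, against 6.87, 2.91 and 4.43 CPM in Sham-Ipsil, a log2 fold change of 2.33 ± 0.61 (edgeR adjusted p = 0.0436). Tlr13 had 25.1, 15.8 and 3.14 CPM in LPC-Ipsil, against 5.2, 2.3 and 2.97 CPM in Sham-Ipsil, a log2 fold change of 2.07 ± 0.56 (edgeR adjusted p = 0.0469). For both, LPC-Ipsil replicate 3 fell among the sham libraries. Tlr9, the DNA sensor, had 8.81, 4.39 and 2.06 CPM in LPC-Ipsil, against 0.777, 1.56 and 1.11 CPM in Sham-Ipsil. Its groups did not overlap, yet its log2 fold change of 2.15 ± 0.62 did not pass (edgeR adjusted p = 0.0596). Without LPC-Ipsil replicate 3 the 3 values were 2.81 ± 0.42 for Tlr7, 2.55 ± 0.36 for Tlr13 and 2.52 ± 0.59 for Tlr9, and all passed.

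Tlr3 and Myd88 had the smallest log2 fold changes. Tlr3 had 28.2, 22.6 and 18.3 CPM in LPC-Ipsil, against 18.5, 17.0 and 16.6 CPM in Sham-Ipsil, a log2 fold change of 0.41 ± 0.17 (edgeR adjusted p = 0.203). Myd88 had 12.1, 7.32 and 4.6 CPM in LPC-Ipsil, against 6.16, 4.33 and 5.43 CPM in Sham-Ipsil, a log2 fold change of 0.59 ± 0.31 (edgeR adjusted p = 0.297). Both genes overlapped between the groups, and neither passed without LPC-Ipsil replicate 3 (adjusted p = 0.0698 for Tlr3 and 0.0637 for Myd88).

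**Figure D2:**
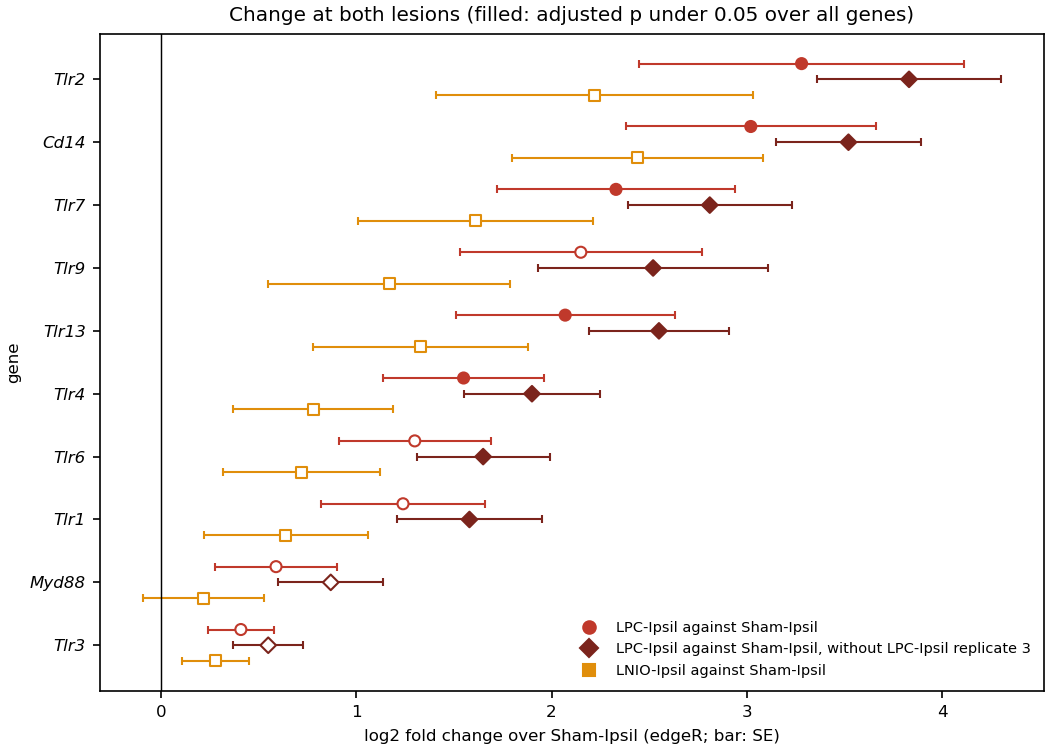
Log2 fold change over Sham-Ipsil with its SE (x axis) for each gene (y axis), at the LPC lesion with all 3 libraries, at the LPC lesion without replicate 3, and at the L-NIO lesion, with filled symbols for an adjusted p under 0.05. All 30 values lie above 0, with Tlr2 and Cd14 highest and Tlr3 and Myd88 lowest in each set.

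The calls at the LPC lesion depended on single libraries and on the fit. Without LPC-Ipsil replicate 3, 8 members passed (background 7.83%), the 5 above together with Tlr1, Tlr6 and Tlr9. Without LPC-Ipsil replicate 1 or 2, or without any of Sham-Ipsil replicates 1, 2 and 3, 0 members and 0 genes of the whole table were called higher in edgeR. Without any library of the other groups 1 to 3 members passed, and 484 to 905 genes of the whole table were called higher. DESeq2's Wald test called 8 members (background 6.44%), while edgeR fitted to the LPC-Ipsil and Sham-Ipsil libraries alone called 0 members and 0 genes of the whole table. At an unadjusted p under 0.05 in edgeR 9 members passed (background 12.8%), all but Myd88. Libraries did not overlap for 3 members, Cd14, Tlr4 and Tlr9, all higher in LPC-Ipsil, while 14.0% of all tested genes were higher without overlap.

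The spread among the LPC-Ipsil libraries differed between the members. LPC-Ipsil replicate 1 held 26.2 times the Tlr2 CPM of replicate 3, 12 times its Cd14 and 7.99 times both its Tlr7 and its Tlr13. For the remaining members that ratio ran from 1.54 for Tlr3 to 4.29 for Tlr9. The coefficient of variation of Tlr2 was 93.2% over the LPC-Ipsil libraries, 34.1% over the LNIO-Ipsil libraries and 5.19% over the Sham-Ipsil libraries. The LNIO-Ipsil libraries were closer to each other than the LPC-Ipsil libraries for all 10 members.

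At the L-NIO lesion all 10 members again had a log2 fold change above 0 over Sham-Ipsil, with a median of 0.97 against -0.02 over all tested genes, but 0 passed the edgeR test, and 0 genes of the whole table did (background 0.0%). At an unadjusted p under 0.05 4 members passed in edgeR, Cd14, Tlr2, Tlr7 and Tlr13 (background 5.77%). DESeq2 called 1 member, Cd14 (background 1.21%).

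Cd14 had 7.96, 15.7 and 11.9 CPM in LNIO-Ipsil, against 2.63, 1.89 and 2.01 CPM in Sham-Ipsil, with no overlap. Its log2 fold change was 2.44 ± 0.64 (edgeR adjusted p = 0.263). Tlr2 had 6.46, 13.2 and 12 CPM in LNIO-Ipsil, against 2.39, 2.23 and 2.16 CPM in Sham-Ipsil, a log2 fold change of 2.22 ± 0.81 (edgeR adjusted p = 0.407). The lowest LNIO-Ipsil library of both genes was replicate 1, and it still lay above every sham library. Tlr7 had 7.8, 17.4 and 18.4 CPM in LNIO-Ipsil, against 6.87, 2.91 and 4.43 CPM in Sham-Ipsil, a log2 fold change of 1.61 ± 0.60 (edgeR adjusted p = 0.412). Libraries did not overlap for 5 members, Cd14, Tlr2, Tlr3, Tlr4 and Tlr7, all higher in LNIO-Ipsil, while 10.1% of all tested genes were higher without overlap. LNIO-Ipsil replicate 1, the lowest of its group for 7 members, also had the highest mitochondrial share of all libraries, 15.9% against 8.74 to 13.7% in the other libraries; its part in these values was not tested.

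This comparison changed with the libraries that shared the fit. Fitted to the LNIO-Ipsil and Sham-Ipsil libraries alone, edgeR called Cd14 (adjusted p = 0.00489) and Tlr2 (adjusted p = 0.0059), with a background of 2.18%. With all groups but without LPC-Ipsil replicate 3 it called 3 members, Cd14 (adjusted p = 0.00139), Tlr2 (0.0123) and Tlr7 (0.0431), with a background of 2.25%. Tlr3 and Myd88 were again the smallest, with log2 fold changes of 0.28 ± 0.17 and 0.22 ± 0.31 (edgeR adjusted p = 0.718 and 0.902).

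Set directly against each other, the lesions gave no call. All 10 members had a log2 fold change below 0 for LNIO-Ipsil over LPC-Ipsil, between -1.06 ± 0.74 for Tlr2 and -0.13 ± 0.17 for Tlr3, with a median of -0.66 against -0.04 over all tested genes. In edgeR 0 members passed (background 0.0% of genes lower), and 0 did at an unadjusted p under 0.05 (background 5.44%). DESeq2 called 0 members (12 genes of the whole table higher and 6 lower). Without LPC-Ipsil replicate 3 the values ran from -1.60 ± 0.43 for Tlr2 to -0.25 ± 0.18 for Tlr3, and 0 members passed (background 1.23%). Without LPC-Ipsil replicate 1 the value of Cd14 was 0.27, that of Myd88 0.05 and that of Tlr3 0.04, so the direction of these 3 rested on that library. The libraries of the lesions overlapped for all 10 members, while of 16795 tested genes 1278 were lower and 1019 higher without overlap.

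Each lesion was also set against the opposite side. In LPC-Ipsil over LPC-Contra all 10 members were above 0 (median 1.87, against 0.01 over all tested genes), and in edgeR 0 passed (background 0.0%). The smallest adjusted p, 0.0629, was shared by Tlr7 with a log2 fold change of 2.69 ± 0.62, Tlr13 with 2.51 ± 0.57 and Tlr4 with 1.90 ± 0.42. At an unadjusted p under 0.05 8 members passed (background 8.53%), DESeq2 called 7 (background 3.67%), and edgeR without LPC-Ipsil replicate 3 called 8 (background 5.26%), all but Tlr3 and Myd88. The 6 members that were higher without overlap, against 7.06% of all tested genes, were Tlr1, Tlr4, Tlr6, Tlr7, Tlr9 and Tlr13. Tlr2 and Cd14 were not among them, with 1.63 CPM of Tlr2 in LPC-Ipsil replicate 3 against 1.46 to 4.32 CPM in LPC-Contra, and 2.78 CPM of Cd14 against 2.2 to 4.73 CPM.

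In LNIO-Ipsil over LNIO-Contra the median was 1.24, against -0.02 over all tested genes, and in edgeR 0 members passed (background 0.0%). At an unadjusted p under 0.05 9 members passed, all but Myd88 (background 4.83%), and DESeq2 called 1, Cd14 (background 1.06%). Tlr2 had 6.46, 13.2 and 12 CPM in LNIO-Ipsil, against 0.921, 2.36 and 1.04 CPM in LNIO-Contra, a log2 fold change of 2.84 ± 0.84 (edgeR adjusted p = 0.365). In 8 members, all but Tlr9 and Myd88, every LNIO-Ipsil library was higher than every LNIO-Contra library, against 7.91% of all tested genes higher without overlap. Fitted to these groups alone edgeR called Tlr2, Tlr1 and Cd14 (background 2.21%), and without LPC-Ipsil replicate 3 it called Tlr2, Cd14, Tlr13 and Tlr7 (background 2.22%). Tlr3 had 19.4, 19.7 and 24.1 CPM in LNIO-Ipsil, against 12.8, 14.6 and 16.8 CPM in LNIO-Contra.

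The opposite sides gave no call against the saline site. LPC-Contra over Sham-Ipsil ranged from -0.49 ± 0.43 for Tlr1 to 0.62 ± 0.64 for Cd14 in log2 fold change, and LNIO-Contra over Sham-Ipsil from -0.62 ± 0.87 for Tlr2 to 0.28 ± 0.65 for Cd14. Both comparisons share the Sham-Ipsil libraries. In each, 0 members passed in edgeR (1 gene of the whole table, 0.00595%, was lower in LPC-Contra and 0.0% were lower in LNIO-Contra). Also, 0 members passed at an unadjusted p under 0.05, and DESeq2 called 0. Of 16795 tested genes, 712 were higher and 912 lower at that unadjusted p in LPC-Contra, and 177 and 280 in LNIO-Contra. DESeq2 called 9 genes higher and 19 lower in LPC-Contra, and 1 and 1 in LNIO-Contra. In LNIO-Contra over LPC-Contra edgeR called 0 members (background 0.0%), as did DESeq2 (4 genes of the whole table higher and 4 lower). There 1 member, Tlr3, had an unadjusted p under 0.05, with a log2 fold change of -0.38 ± 0.17 (background 1.86% of genes lower; adjusted p = 1.0). The interaction, the side difference of L-NIO minus that of LPC, ran from -1.12 ± 0.77 for Tlr13 to 0.25 ± 0.25 for Tlr3. It gave 0 members in edgeR (background 0.0%) and 0 at an unadjusted p under 0.05 (97 genes of the whole table higher and 74 lower). In DESeq2 it gave 0 members and 0 genes of the whole table.

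Compared between genes by group mean on the length-scaled FPKM scale (fragments scaled by gene length and library depth), Tlr3 led the set outside the lesions, and Cd14 led it inside them. In Sham-Ipsil the mean level was 3.13 ± 0.205 FPKM for Tlr3 (SD, n = 3), 1.94 ± 0.352 for Myd88, 1.82 ± 0.661 for Tlr1, 1.18 ± 0.226 for Cd14, 1.09 ± 0.472 for Tlr7, 0.763 ± 0.34 for Tlr13, 0.705 ± 0.0427 for Tlr2, 0.56 ± 0.177 for Tlr6, 0.309 ± 0.103 for Tlr9 and 0.298 ± 0.0334 for Tlr4. Of neighbours in that order, libraries did not overlap between Tlr3 and Myd88 or between Tlr6 and Tlr9, and all other neighbours overlapped. LPC-Contra and LNIO-Contra also had Tlr3 first, Myd88 second and Tlr4 last.

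The lesions had a different order. In LPC-Ipsil Cd14 averaged 9.51 ± 8.09 FPKM, Tlr2 6.81 ± 6.25, Tlr7 5.47 ± 3.97, Tlr1 4.27 ± 2.54 and Tlr3 4.16 ± 0.803. In LNIO-Ipsil Cd14 averaged 6.52 ± 2.18 FPKM, Tlr3 3.86 ± 0.634, Tlr7 3.41 ± 1.46, Tlr2 3.34 ± 1.2 and Tlr1 2.84 ± 0.625. All neighbours in both orders overlapped between libraries. Without replicate 3 the LPC-Ipsil means were 13.5 FPKM for Cd14, 9.96 for Tlr2, 7.61 for Tlr7, 5.36 for Tlr1 and 4.55 for Tlr3, in the same order. In LPC-Ipsil replicate 3 itself Tlr3 led with 3.36 FPKM, followed by Tlr1 with 2.08, Myd88 with 1.71 and Cd14 with 1.54. Tlr4 was the lowest of the 10 in every group, at 0.871 ± 0.422 FPKM in LPC-Ipsil and 0.52 ± 0.133 in LNIO-Ipsil.

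**Figure D3:**
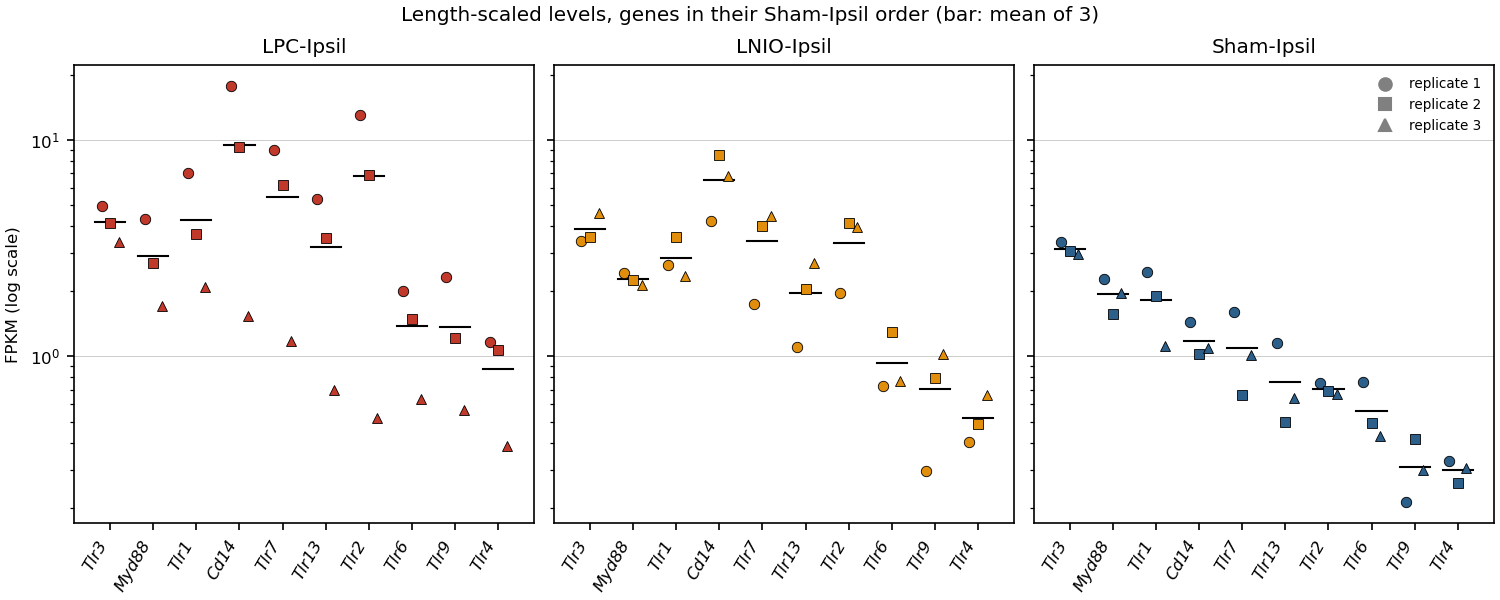
FPKM on a log scale (y axis) of the 10 genes (x axis, in their Sham-Ipsil order) in each library of LPC-Ipsil, LNIO-Ipsil and Sham-Ipsil, with a bar for the mean of 3. The means of Cd14, Tlr7 and Tlr2 stand above their place in the sham order at both lesions, and LPC-Ipsil replicate 3 is the lowest of its group for all 10 genes.

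Ratios between receptors within a library describe the make-up of the set. These pairs were chosen after values had been seen and carry no test. The FPKM ratio of Tlr2 to its partner Tlr1 was 1.85, 1.88 and 0.25 in LPC-Ipsil replicates 1, 2 and 3 and 0.749 to 1.67 in LNIO-Ipsil, against 0.308 to 0.597 in Sham-Ipsil. The ratio of Cd14 to Tlr4 was 3.99 to 15.3 in LPC-Ipsil and 10.2 to 17.5 in LNIO-Ipsil, against 3.56 to 4.41 in Sham-Ipsil, and every LNIO-Ipsil library lay above every sham library in both ratios. The contralateral groups reached 1.17 for Tlr2 to Tlr1 and 13.7 for Cd14 to Tlr4. By contrast Tlr1 to Tlr6 was 2.48 to 3.51 in LPC-Ipsil and 2.72 to 3.61 in LNIO-Ipsil, against 2.62 to 3.84 in Sham-Ipsil. Tlr13 to Tlr7 was 0.565 to 0.594 in LPC-Ipsil and 0.512 to 0.63 in LNIO-Ipsil, against 0.636 to 0.75 in Sham-Ipsil, and it reached 0.971 in LNIO-Contra. Every lesion library lay below every sham library in this ratio, although LPC-Contra went down to 0.571. Within LPC-Ipsil the ratio of Tlr13 to Tlr7 held its place while each of its genes varied 7.99-fold.

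**Figure D4:**
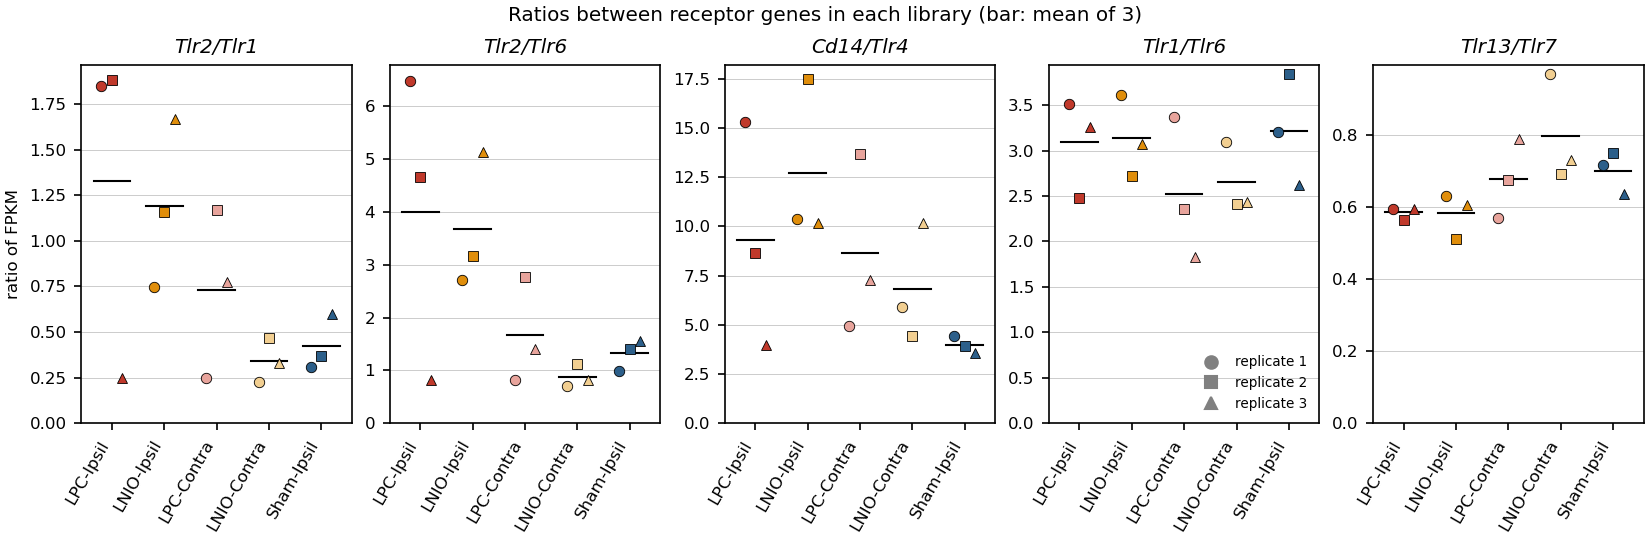
Ratio of FPKM (y axes, from 0) between pairs of receptor genes in each library of the 5 groups (x axis), with a bar for the mean of 3. The ratios over Tlr1, Tlr6 and Tlr4 are high in most lesion libraries and spread widely, while Tlr1 to Tlr6 stays between 1.83 and 3.84 and Tlr13 to Tlr7 between 0.512 and 0.971.

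Because microglial genes moved with the receptors, each member was also set against the mean of 11 microglial genes in the same library, as log2 CPM of the member minus mean log2 CPM of the list. The list holds Csf1r, Cx3cr1, P2ry12 and the C1q genes among others, and 11 of the 11 genes measured were called higher in LPC-Ipsil and 0 of 11 in LNIO-Ipsil over Sham-Ipsil (edgeR). With 3 libraries against 3 a two-sided exact permutation test cannot give a p under 0.1, and 10 members were tested in each of 3 comparisons. Most genes lay lower on this scale: 56.6% of all tested genes were lower without overlap in LPC-Ipsil minus Sham-Ipsil and 93.0% in LNIO-Ipsil minus Sham-Ipsil, while 0.214% and 0.518% were higher in the same order. In LPC-Ipsil minus Sham-Ipsil 7 of the 10 members were below 0. Tlr3 had -3.08, -2.81 and -1.13 in LPC-Ipsil, against -0.96, -0.88 and -0.86 in Sham-Ipsil. Its difference was -1.44 and that of Myd88 -1.35, both without overlap (exact permutation p = 0.1). Tlr2 had -2.49, -2.86 and -4.26 in LPC-Ipsil, against -3.68, -3.56 and -3.55 in Sham-Ipsil, so replicate 3 lay on the other side of the sham libraries from replicates 1 and 2. Without replicate 3 the difference was 0.92 for Tlr2 and 0.61 for Cd14, and -2.05 for Tlr3 and -1.79 for Myd88. Tlr2 and Cd14 were then higher without overlap, but with 2 libraries against 3 this is easier to reach. The shares of all genes given above are for 3 against 3 and do not apply to it.

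In LNIO-Ipsil minus Sham-Ipsil, 2 members were higher without overlap (background 0.518%) and 5 lower (background 93.0%), so the lower members did what most genes did. Cd14 with a difference of 0.76 and Tlr2 with 0.54 were higher, and Tlr3 with -1.13, Myd88 with -1.19, Tlr6 with -0.80, Tlr1 with -0.77 and Tlr4 with -0.77 were lower (exact permutation p = 0.1 for each, the smallest the design allows). Tlr7 with 0.10 and Tlr13 with -0.19 lay close to the list. The higher values depended on the genes of the list. Against Csf1r and the C1q genes alone, a reference chosen after seeing the data, the difference of Tlr2 was -0.15 and that of Cd14 was 0.08, both with overlap. In LNIO-Ipsil minus LPC-Ipsil 0 members were without overlap (background 0.238% higher and 0.101% lower), and the differences ran from -0.37 for Tlr9 to 0.35 for Cd14.

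**Figure D5:**
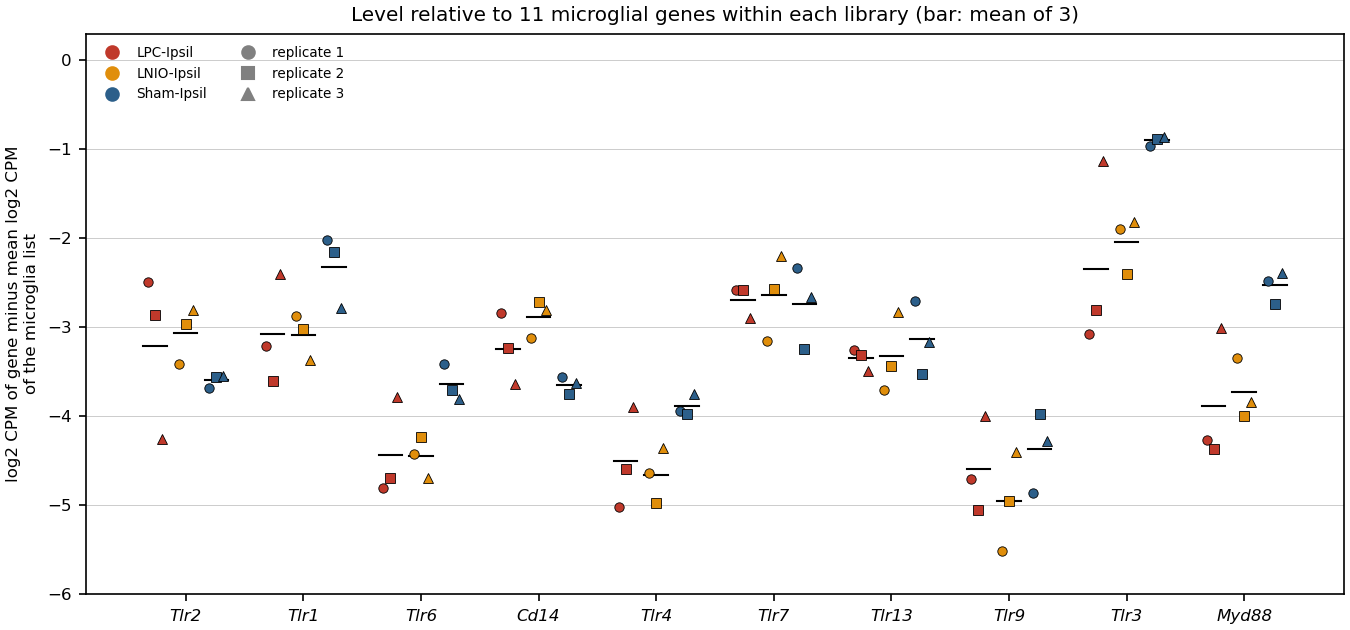
Log2 CPM of each gene minus the mean log2 CPM of 11 microglial genes (y axis) in each library of LPC-Ipsil, LNIO-Ipsil and Sham-Ipsil, with genes along the x axis and a bar for the mean of 3. LNIO-Ipsil lies above Sham-Ipsil for Tlr2 and Cd14 and below it for Tlr1, Tlr6, Tlr4, Tlr3 and Myd88, and for Tlr2 LPC-Ipsil replicate 3 lies below all sham libraries.

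Defining markers of some blood cells were at or near 0. Ly6g, a neutrophil gene, had 0 counts in 15 of 15 libraries, and Cd3e, a T cell gene, had 0 counts in 10 libraries and at most 3 in the others. Other genes of the T cell list were present in every library, Cd4 at 3.71 to 31.9 CPM and Lck at 0.713 to 1.95 CPM. The summed CPM over 7 T cell genes was 18.6 to 32.7 in LPC-Ipsil and 7.74 to 23.3 in LNIO-Ipsil, against 4.84 to 33.8 in Sham-Ipsil. Ccr2, a monocyte receptor, was low but never at 0, with 2 to 53 counts (0.121 to 3.2 CPM) over the series. The median log2 fold change over the 5 tested monocyte genes was 0.85 in LPC-Ipsil and 0.45 in LNIO-Ipsil over Sham-Ipsil. The summed CPM over 8 monocyte genes was 66.7 to 73.5 in LPC-Ipsil and 57.8 to 80 in LNIO-Ipsil, against 46.8 to 82.1 in Sham-Ipsil. Most of that sum came from Vcan (35.3 to 77.2 CPM over the series), and no other gene of the list exceeded 3.59 CPM. Over 8 border macrophage genes the sum was 10.3 to 20.3 in LPC-Ipsil and 10.7 to 14.5 in LNIO-Ipsil, against 7.05 to 20.2 in Sham-Ipsil. The sum over 8 neutrophil genes was 17.1 to 193.0 in LPC-Ipsil and 55.9 to 65.7 in LNIO-Ipsil, against 8.25 to 17.3 in Sham-Ipsil, most of it from Csf3r (6.74 to 192.0 CPM over the series). Genes called higher in LPC-Ipsil over Sham-Ipsil (edgeR) were 0 of 5 tested for monocytes, 0 of 8 for border macrophages, 1 of 2 for neutrophils, 1 of 3 for T cells, 0 of 1 for B and plasma cells, 1 of 2 for dendritic cells, 2 of 8 for astrocytes, 0 of 8 for oligodendrocytes, 0 of 7 for endothelium and 0 of 8 for neurons. Over all tested genes 4.19% were called higher, and 167 genes were called lower, 1 of the 8 neuronal genes among them. Without LPC-Ipsil replicate 3 the genes called higher were 4 of 8 for astrocytes, 1 of 8 for border macrophages, 1 of 2 for B and plasma cells and 1 of 7 for endothelium (background 7.83%). In that fit 4 of 8 neuronal genes and the dendritic gene Flt3 were lower, and the other counts of higher genes stayed as they were. Siglech, the dendritic gene called higher, is also a gene of the microglial list. The summed CPM over 8 astrocyte genes was 6270 to 8310 in LPC-Ipsil and 5710 to 7380 in LNIO-Ipsil, against 5120 to 5630 in Sham-Ipsil. The part of these cell types in the receptor values was not tested.

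The remaining Toll-like receptor genes were low. Tlr12, which binds profilin of protozoa, had 3.02, 1.94 and 0.605 CPM in LPC-Ipsil, against 0.598, 0.406 and 0.402 CPM in Sham-Ipsil, a log2 fold change of 1.97 ± 0.65 that did not pass (edgeR adjusted p = 0.0957). Tlr5, the flagellin receptor, averaged 0.56 ± 0.196 CPM in LPC-Ipsil and 0.334 ± 0.195 CPM in Sham-Ipsil (SD, n = 3 each). Tlr8 and Tlr11 did not pass the filter on low counts.

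Around the receptors, several partners rose at the LPC lesion, read against the 4.19% of all tested genes called higher. These calls rest on the same libraries as those of the members: without LPC-Ipsil replicate 1 or 2, without any sham library, or with only the groups compared, edgeR called 0 genes of the whole table higher, so all of them were lost. Tlr5, Tasl, Il1b, Ccl3, Ccl4 and Ccl5 reached 10 counts in fewer than 3 of the 9 sham and contralateral libraries, so they passed the filter only through the lesion libraries, and they are left out of the counts of risen genes. Of 15 tested accessory and trafficking proteins 6 rose and 0 fell in LPC-Ipsil over Sham-Ipsil, among them Unc93b1, the chaperone that carries endosomal receptors out of the endoplasmic reticulum, at 2.45 ± 0.48, and Pld4, a nuclease of endosomal DNA and RNA, at 2.97 ± 0.60. Cd180, a Toll-like receptor homologue, rose at 3.94 ± 0.76, and its binding partner Ly86 (MD-1) at 3.46 ± 0.74. The edgeR adjusted p of these 4 log2 fold changes was 0.0243 to 0.0257. Unc93b1 had 115.0, 69.3 and 18.9 CPM in LPC-Ipsil, against 14.7, 10.5 and 11.9 CPM in Sham-Ipsil, so its groups did not overlap. Cd180 had 69.4, 43.0 and 3.75 CPM in LPC-Ipsil, against 2.63, 2.43 and 2.46 CPM in Sham-Ipsil. The log2 fold change without LPC-Ipsil replicate 3 was 2.89 for Unc93b1, 3.46 for Pld4, 4.48 for Cd180 and 3.99 for Ly86.

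Of 5 adaptors other than Myd88 and Tasl 2 rose and 0 fell. Ticam2 (TRAM), which joins Tlr4 to the interferon branch, had a log2 fold change of 3.16 ± 0.66 and Pik3ap1 (BCAP) 2.18 ± 0.43 (edgeR adjusted p = 0.0243 for each), and without LPC-Ipsil replicate 3 the values were 3.68 and 2.60. Tasl, which links endosomal receptors to Irf5, had 4.41, 2.55 and 0.665 CPM in LPC-Ipsil, against 0.299, 0.27 and 0.201 CPM in Sham-Ipsil. Ticam1, the adaptor of Tlr3, had 0.66 ± 0.24 and did not pass (edgeR adjusted p = 0.131). Of 17 kinases and ubiquitin ligases 4 rose and 0 fell, Irak4, Btk, Irak2 and Ikbke. Irak4, the kinase recruited by Myd88, had 8.75, 5.67 and 3.39 CPM in LPC-Ipsil, against 2.15, 2.91 and 1.31 CPM in Sham-Ipsil, a log2 fold change of 1.49 ± 0.33 (edgeR adjusted p = 0.0247). Of 13 transcription factors 4 rose and 0 fell. Irf5, which acts downstream of Myd88, rose at 2.98 ± 0.49, Irf8 at 3.29 ± 0.61, Spi1 (PU.1) at 3.08 ± 0.58 and the NF-kB subunit Nfkb2 at 1.46 ± 0.28 (edgeR adjusted p = 0.0243 for each). Leaving out LPC-Ipsil replicate 3 gave 3.43 for Irf5, 3.78 for Irf8, 3.57 for Spi1, 1.70 for Nfkb2 and 1.77 for Irak4.

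Of 14 tested inhibitors 1 rose and 0 fell, the kinase Lyn at 2.27 ± 0.54 (edgeR adjusted p = 0.0311), with 2.76 ± 0.25 without LPC-Ipsil replicate 3. Tnfaip3 (A20), an inhibitor of NF-kB signalling, had 0.61 ± 0.26 and did not pass (edgeR adjusted p = 0.203), and without LPC-Ipsil replicate 3 it had 0.89 and passed (adjusted p = 0.0147). Of 19 target genes of the pathway 10 could be tested, and of the 6 that did not need the lesions for this 1 rose, the adhesion molecule Icam1 at 2.52 ± 0.52 (edgeR adjusted p = 0.0243), with 2.99 without LPC-Ipsil replicate 3. The chemokine Ccl3 had 13.2, 12.8 and 0.242 CPM in LPC-Ipsil, against 0.0598, 0.473 and 0.151 CPM in Sham-Ipsil, so LPC-Ipsil replicate 3 fell among the sham libraries. Its relative Ccl4 had 5.19, 4.54 and 0.181 CPM in LPC-Ipsil, against 0.299, 0.135 and 0.0503 CPM in Sham-Ipsil. The sham values of both rest on 1 to 7 counts a library, which fixes no fold. The classical targets Tnf, Il6, Il12b, Ccl2, Cxcl1, Cxcl2, Ifnb1, Acod1 and Nos2 were too low to be tested. Of 10 tested genes for endogenous ligands 1 rose and 0 fell, the matrix proteoglycan Bgn (biglycan), which Tlr2 and Tlr4 bind, with 40.1, 34.9 and 18.1 CPM in LPC-Ipsil, against 13.9, 11.2 and 14.1 CPM in Sham-Ipsil (log2 fold change 1.25 ± 0.26, edgeR adjusted p = 0.0243, and 1.52 ± 0.21 without LPC-Ipsil replicate 3). Without LPC-Ipsil replicate 3 the called genes, less those that needed the lesions to be tested, numbered 6 accessory proteins, 2 adaptors, 5 kinases and ligases, 8 transcription factors, 4 inhibitors, 2 targets, 2 ligands and 1 other receptor, all higher (background 7.83%).

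At the L-NIO lesion 0 genes of these lists passed in edgeR over Sham-Ipsil, and, less the genes that needed the lesions to be tested, DESeq2 called 11, all higher (background 1.21%), 5 of them accessory proteins and 4 transcription factors. At an unadjusted p under 0.05 in edgeR there were, less the same genes, 6 accessory proteins, 2 adaptors, 3 kinases and ligases, 5 transcription factors, 2 inhibitors, 2 targets, 1 ligand and 0 other receptors that were higher (background 5.77%), and 1 kinase, Tbk1, that was lower at -0.28 ± 0.11 (adjusted p = 0.483). Ccl3 had 6.02, 5.51 and 6.65 CPM in LNIO-Ipsil, against 0.0598, 0.473 and 0.151 CPM in Sham-Ipsil. Its LNIO-Ipsil libraries lay close to each other, and Ccl3 is among the genes that needed the lesions to be tested. Cd180 had 10.2, 24.6 and 29.9 CPM in LNIO-Ipsil, against 2.63, 2.43 and 2.46 CPM in Sham-Ipsil, a log2 fold change of 3.10 ± 0.75 (edgeR adjusted p = 0.263). Irf5 had 9.41, 13.7 and 9.92 CPM in LNIO-Ipsil, against 2.63, 2.77 and 2.77 CPM in Sham-Ipsil, a log2 fold change of 2.01 ± 0.48 (edgeR adjusted p = 0.263).

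The likeness of profiles was measured over 15 libraries as the root mean square difference of log2 CPM, each gene centred on its Sham-Ipsil mean. The members' mean profile was 2.32, 1.65 and 0.12 in LPC-Ipsil replicates 1, 2 and 3 and 0.62, 1.23 and 1.15 in LNIO-Ipsil. The 5 genes closest to it were Tgfbr1 at 0.20, Dcstamp at 0.204, Cybrd1 at 0.217, Osm at 0.221 and Hmox1 at 0.227. Among the members, those nearest to each other were Tlr7 and Tlr13 at 0.235, Tlr4 and Tlr6 at 0.293, and Tlr3 and Myd88 at 0.314. So were Tlr2 and Cd14, at 0.54. The nearest member to Tlr1 was Tlr6 at 0.299, and to Tlr9 it was Tlr4 at 0.531. Of all other genes the nearest to Tlr2 was the chemokine Cxcl16 at 0.369, to Cd14 the Fc receptor gene Fcgr3 at 0.227 and to Tlr7 the leukocyte gene Plek (pleckstrin) at 0.294. Those nearest to the remaining members were Epsti1 for Tlr1 at 0.263, Plcd4 for Tlr3 at 0.152, Abca9 for Tlr4 at 0.21, Plxdc2 for Tlr6 at 0.191, Ugt1a7c for Tlr9 at 0.362, Or5v1b for Tlr13 at 0.238 and Eef1a1 for Myd88 at 0.167. Genes that change little lie close to Tlr3 and Myd88 on this measure, and the points share libraries and depth.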

How the data were processed

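RNA of mouse corpus callosum was sequenced in 15 libraries, 3 in each of 5 groups. Per the labels' protocols, RNA was extracted with TRIzol, depleted of ribosomal RNA, purified by poly(A) and sequenced in pairs of reads on a NovaSeq. The authors deposited a table of whole-number read counts per gene symbol and a table of FPKM for the same libraries. The submitters' processing notes name HISAT2 2.2.1, R 4.4.2 and GRCm39. Neither a counting program nor a strand setting or annotation is given in the sources used here. All columns were matched to a library by group and number, and 74 symbols occur more than once.

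Counts were tested with edgeR 4.0.16 (quasi-likelihood, robust, TMM scaling, filterByExpr with a minimum count of 10) in R 4.3.3, with a mean per group over 15 libraries, leaving 16795 genes. In each of 9 comparisons a call needs p under 0.05 after Benjamini-Hochberg adjustment. CPM are TMM-scaled, and the SE is the size of the log2 fold change over the square root of F. FPKM serve levels between genes, and a pseudocount of 0.5 CPM serves log2 values per library. Alternatives were DESeq2 1.42.0, limma 3.58.1 on log2 FPKM, fits to the compared groups, replicate blocks, other scaling and filters, and each library left out. On simulated counts the edgeR step was tested. Replicate pairs differed beyond sampling noise (chi-square per degree of freedom 10.1 to 63.7).

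Replicate numbers were checked for pairing. Deviations of same-numbered LNIO-Ipsil and LNIO-Contra libraries correlated at 0.249 to 0.599, so by the rule used these numbers pair the sides, while those of LPC-Ipsil and LPC-Contra ran from -0.0357 to 0.334 and do not. A block on the number within each model changed no call of a member in the L-NIO side comparison (0 members). Over the whole table it called 6 genes, all higher, against 0 without it. The p-values given for the L-NIO side comparison come from fits without this block.

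Members and lists were chosen with earlier results of these data known. From each of 8 pathway lists (103 genes), up to 4 genes with the smallest adjusted p per comparison are named, and any outside this rule, such as Fam114a1 and the marker genes, were chosen after their values were seen. Promoter windows were read in GRCm38.p6, which differs from the build of the counts, and no position from another build is used. Another reference planned for the microglial comparison is not reported here.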

Additional observations from a re-analysis of the deposited data

How the results depend on the processing

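The count of members called in LPC-Ipsil over Sham-Ipsil, 5 in the reported fit, was 8 with DESeq2, 2 with the replicate number as a block, and 0 with no filter on low counts, with only the groups compared, and with limma on log2 FPKM under both pseudocounts and without a filter. In LNIO-Ipsil over Sham-Ipsil it was 1 with DESeq2 and 2 with only the groups compared, against 0. In LPC-Ipsil over LPC-Contra it was 7 with DESeq2, against 0. In LNIO-Ipsil over LNIO-Contra it was 1 with DESeq2 and 3 with only the groups compared, against 0. The cause of these differences was not tested. Over all genes, 871 were called in LPC-Ipsil over Sham-Ipsil, against 1512 with DESeq2, 652 with the replicate number as a block and 524 with no filter. There were 0 with only the groups compared, 3 or 4 with limma and 1646 without LPC-Ipsil replicate 3. In LNIO-Ipsil over Sham-Ipsil 0 were called, against 237 with DESeq2, 378 with only the groups compared and 398 without LPC-Ipsil replicate 3.

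Leaving out 1 library gave 0 to 8 calls in LPC-Ipsil over Sham-Ipsil, 0 to 3 in LNIO-Ipsil over Sham-Ipsil, 0 to 8 in LPC-Ipsil over LPC-Contra and 0 to 4 in LNIO-Ipsil over LNIO-Contra, each highest without LPC-Ipsil replicate 3. Where an arm kept fewer libraries the pooled spread of all groups was used. In LNIO-Ipsil over LPC-Ipsil the log2 fold changes of Cd14 (0.27), Myd88 (0.05) and Tlr3 (0.04) changed sign without LPC-Ipsil replicate 1, and leaving out 1 library gave ranges of -1.07 to 0.27 for Cd14, -0.64 to 0.05 for Myd88 and -0.25 to 0.04 for Tlr3. Against Csf1r and the C1q genes in place of the microglial list, a reference chosen after seeing the data, the number of members above 0 was 0 in place of 3 in LPC-Ipsil minus Sham-Ipsil, 1 in place of 3 in LNIO-Ipsil minus Sham-Ipsil and 3 in place of 6 in LNIO-Ipsil minus LPC-Ipsil. When a library was left out it was 2 to 4 in both comparisons with Sham-Ipsil and 4 to 6 in LNIO-Ipsil minus LPC-Ipsil. Of the members' log2 fold changes under other settings in the 5 comparisons of a lesion site with another group, 1046 kept direction and side of the threshold, 38 newly passed, 83 no longer passed and 3 reversed.

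A block on the replicate number within each model, chosen after seeing the data, called 1 member in LPC-Ipsil over LPC-Contra (Tlr1, log2 fold change 1.62). That fit called 28 of 16661 genes higher and 4 lower. The LPC numbers do not pair by correlation, and 3 of the 6 LPC libraries correlated best with their own number, a hint from the data and not from the design. Tlr9 had as few as 4 counts in a library, so its small differences were not detectable at this depth.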
